A study of Mus musculus with 24 samples.

Results

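The 10 genes described here are the ATR and ATM checkpoint kinases and the factors that act with them at DNA breaks and on unsynapsed chromosomes of meiosis: Atr, Atrip, Topbp1, Chek1, Atm, Chek2, Mdc1, Rnf8, Trp53bp1 and Trip13. They were taken by symbol from the 52323 rows of the deposited gene tables, and all 10 had a row of their own. The tables come from testis cells of wild-type NMRI mice, and cover total RNA and nascent RNA, the RNA made during the last 3 hours of life. Each assay had 12 libraries: 3 of spermatogonia (2 animals), 1 of preleptotene (1 animal), 4 of leptotene (3 animals) and 4 of pachytene spermatocytes (2 animals). All animals had spermatogenesis synchronised with WIN18,446, which blocks the making of retinoic acid, and then with retinoic acid itself. Each received 2 mg of 5-ethynyl uridine (EU), a uridine analog that enters new transcripts, at 24 days post-partum, and the cells were sorted by DNA content 3 hours later. All stages compared share this treatment. The total RNA animals and the nascent RNA animals carried different numbers, and several stages were taken from the same animal.

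ATR, held at single-stranded DNA by its partner ATRIP and switched on by TOPBP1, signals through CHK1, while ATM is switched on at double-strand breaks and signals through CHK2. Both kinases phosphorylate the histone H2AX, and MDC1 binds that mark, spreads it along the chromatin and brings in the ubiquitin ligase RNF8 and, further down, 53BP1 (gene Trp53bp1). In spermatocytes ATM acts at the programmed breaks of leptotene, and in pachytene ATR, TOPBP1 and MDC1 carry the mark over the X and Y chromosomes, whose genes are then silenced, while TRIP13 takes HORMAD proteins off the synapsed axes.

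Atr lies at chr9:95857597-95951781 on the plus strand (mm10, GENCODE M21), Mdc1 at chr17:35841515-35859670 on the plus strand, Atm at chr9:53439149-53536740 on the minus strand and Chek2 at chr5:110839979-110874145 on the plus strand. Their promoters are printed because these 4 genes parted between leptotene or spermatogonia and pachytene: Atr and Mdc1 were higher in pachytene than in spermatogonia, and Atm and Chek2 were lower. Chek1 was lower as well, but its stretch held 0 bases to print under the rule that follows. The sequences are RefSeq's (GRCm38.p6), read 5′ to 3′ on the gene's strand from bases before the RefSeq start, without bases inside the GENCODE gene. Capitals mark TTCCCGC or its reverse complement GCGGGAA, a core of E2F sites, and CCAAT or its reverse complement ATTGG. The motifs do not overlap each other.
Atr chr9:95857397-95857596 (plus strand): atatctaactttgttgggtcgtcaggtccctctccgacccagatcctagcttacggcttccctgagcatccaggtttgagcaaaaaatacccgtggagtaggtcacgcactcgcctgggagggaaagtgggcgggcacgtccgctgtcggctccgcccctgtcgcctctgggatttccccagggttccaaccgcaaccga
Mdc1 chr17:35841298-35841497 (plus strand): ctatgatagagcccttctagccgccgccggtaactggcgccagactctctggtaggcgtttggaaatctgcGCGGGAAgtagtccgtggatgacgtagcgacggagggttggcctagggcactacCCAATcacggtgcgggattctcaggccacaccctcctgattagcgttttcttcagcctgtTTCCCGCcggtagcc
Atm chr9:53536741-53536871 (minus strand): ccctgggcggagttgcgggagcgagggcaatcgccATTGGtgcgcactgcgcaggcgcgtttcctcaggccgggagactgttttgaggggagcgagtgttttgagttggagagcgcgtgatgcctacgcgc
Chek2 chr5:110839783-110839978 (plus strand): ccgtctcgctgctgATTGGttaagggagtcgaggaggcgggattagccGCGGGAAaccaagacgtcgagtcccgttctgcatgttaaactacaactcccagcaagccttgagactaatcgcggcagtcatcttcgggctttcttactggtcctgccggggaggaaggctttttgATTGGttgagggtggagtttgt
In the 250 bases before the start, the E2F core was found in Chek2, Mdc1 and Rnf8 of the 10 genes and in 3.82% of 32851 RefSeq promoters. CCAAT or its complement was found in Atm, Atrip, Chek2, Mdc1 and Rnf8, and in 33.8% of the promoters. The pair that was higher in pachytene did not share these letters: Mdc1 held both motifs and the Atr stretch held neither. A match of letters is not a binding site.

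Several libraries stood apart from the rest of their stage. The 9 pachytene markers summed to 769 to 1203 FPKM (fragments per kilobase of transcript, scaled to the library) in the pachytene total libraries, to 684.5 in leptotene library 2 and to 34.9 to 59.6 in the other leptotene libraries. In nascent RNA leptotene library 2 also stood apart, with 218 FPKM against 10.9 to 45.2. By Spearman's rho leptotene library 2 correlated with the pachytene libraries at 0.874 to 0.904 in total RNA, and with the other leptotene libraries at 0.528 to 0.569. Leptotene library 3 correlated with spermatogonia at 0.739 to 0.853 in total and 0.766 to 0.862 in nascent RNA, where libraries 1 and 4 did so at 0.625 to 0.766 and 0.540 to 0.655. Its rho with the preleptotene library was 0.851 and 0.790, and that with other leptotene libraries reached 0.846 and 0.779. Several results that rest on leptotene are therefore given with and without libraries 2 and 3, and for the rest that check is not given. The 7 spermatogonia markers summed to 128 to 174 FPKM in the spermatogonia total libraries and to 1.71 to 16.3 in pachytene, and the 8 markers of meiotic entry and leptotene to 76.5 to 439 in leptotene and 10.1 to 52.1 in pachytene. The spermatogonia libraries also held markers of other testis cells: in total RNA the 7 Sertoli markers summed to 81.4 to 128 FPKM there, with 6 or 7 of the 7 at 1 FPKM or more, and to 5.18 to 19.0 in leptotene and 0.571 to 2.92 in pachytene, and the 5 Leydig markers summed to 171 to 417, 2.002 to 19.9 and 4.48 to 7.76. Both sums were thus highest in the stage that every comparison with spermatogonia starts from, and their part in those comparisons was not tested. In bulk libraries, fewer cells of a type and less RNA per cell cannot be told apart.

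In total RNA Mdc1 and Atr were the genes that ended higher in pachytene than in spermatogonia, and Atm, Chek1 and Chek2 were the genes that ended lower. Changes are differences in log2(FPKM + 1), which understates changes of low genes. They are given with the standard error and a two-sided p from limma over 19202 genes, with Benjamini-Hochberg adjustment and animals as replicates. Between spermatogonia and pachytene 5 of the 10 genes passed an adjusted p of 0.05, 2 upward and 3 downward, where 52.9% of all genes tested did, 23.1% upward and 29.8% downward. Between leptotene and pachytene 3 of 10 passed, all downward, beside 40.3% of all genes, of which 17.9% of the genes tested were downward. Between spermatogonia and leptotene limma called 0 of 10, where 9.87% of all genes were called. At an unadjusted p under 0.05 stood 3 of the 10, and 21.8% of all genes. Their median change was 0.33, -0.13 and -0.17 for leptotene over spermatogonia, pachytene over leptotene and pachytene over spermatogonia, beside -0.07, -0.07 and -0.14 over all genes.

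**Figure D1:**
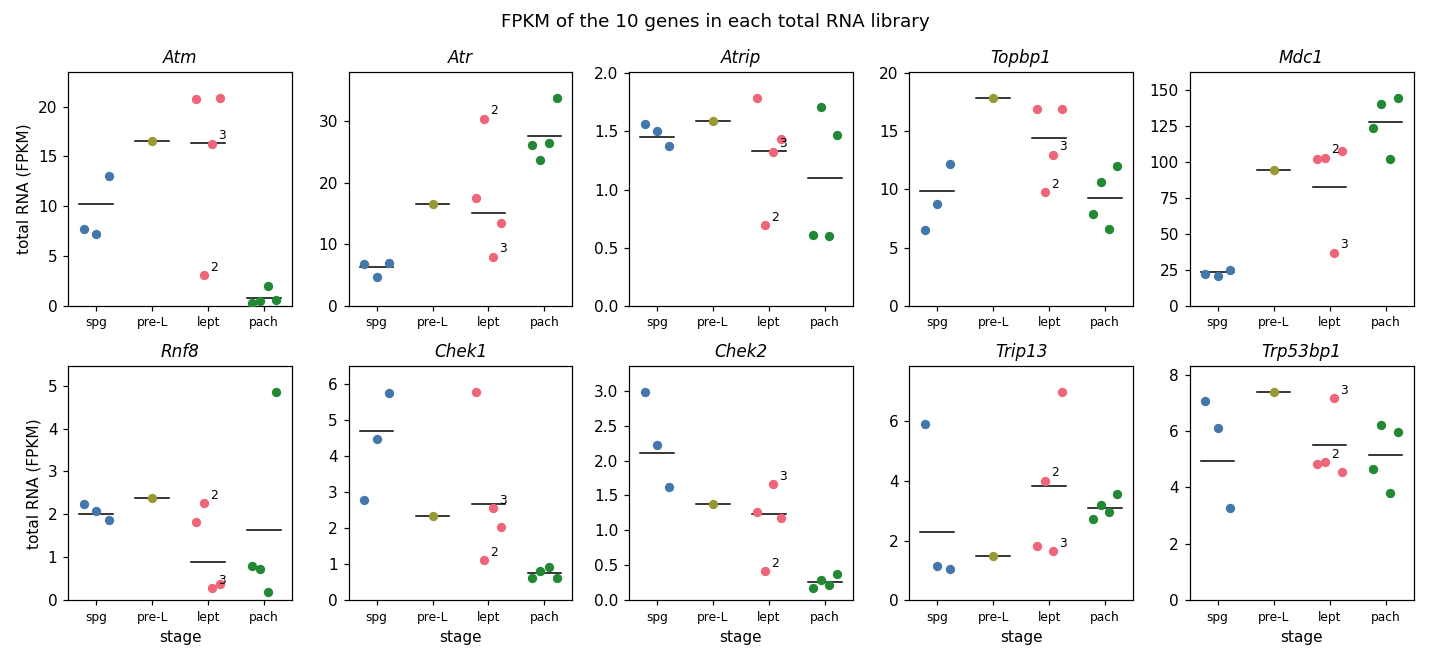
Total RNA level in FPKM (vertical, from 0, a scale for each gene) for the 10 genes by stage (horizontal: spermatogonia, preleptotene, leptotene, pachytene), with 1 point per library, bars at the mean over animals and leptotene libraries 2 and 3 numbered. Atr and Mdc1 sit higher in all 4 pachytene libraries than in any of the 3 spermatogonia libraries, and Atm, Chek1 and Chek2 sit lower.

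Atr, the kinase that heads its arm, rose from spermatogonia to pachytene. Atr was 6.75, 4.74 and 6.95 FPKM in spermatogonia libraries 1 to 3, 16.6 in the preleptotene library, 17.6, 30.4, 7.95 and 13.4 in leptotene libraries 1 to 4 and 26.2, 23.8, 26.5 and 33.8 in pachytene libraries 1 to 4. All leptotene libraries were above all spermatogonia libraries, while leptotene library 2, at 30.4 FPKM, lay inside the pachytene range of 23.8 to 33.8. The means over animals were 6.35 ± 0.854 FPKM (SD, n = 2) in spermatogonia, 15.1 ± 8.16 (n = 3) in leptotene and 27.6 ± 1.73 (n = 2) in pachytene. From spermatogonia to pachytene Atr rose by 1.96 ± 0.47 (interval 0.89 to 3.04, limma adjusted p = 0.00784), 3.90-fold on that scale. From spermatogonia to leptotene the difference was 1.004 ± 0.43 (limma adjusted p = 0.218), and from leptotene to pachytene 0.96 ± 0.43 (adjusted p = 0.106), neither of which passed. Without leptotene libraries 2 and 3 both steps passed, at 1.17 (limma adjusted p = 0.0172) and 0.79 (adjusted p = 0.0255), where 27% and 57.3% of all genes were called, beside 62.7% between spermatogonia and pachytene. Leaving out library 2 alone gave 1.08 for the later step (limma adjusted p = 0.0274).

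Its partners did not follow it. Atrip, which holds ATR at RPA-coated DNA (chr9:109057933-109074124 on the minus strand), stayed low. Atrip was 1.57, 1.5 and 1.37 FPKM in spermatogonia libraries 1 to 3, 1.59 in the preleptotene library, 1.79, 0.691, 1.32 and 1.43 in leptotene libraries 1 to 4 and 0.610, 1.71, 0.597 and 1.47 in pachytene libraries 1 to 4. Spermatogonia, leptotene and pachytene overlapped, the preleptotene library was just above spermatogonia, and the largest of its 3 differences was -0.27 ± 0.31 from spermatogonia to pachytene. Topbp1 (chr9:103305215-103350428 on the plus strand), the ATR activator, was highest in the preleptotene library. Topbp1 was 6.50, 8.76 and 12.2 FPKM in spermatogonia libraries 1 to 3, 17.9 in the preleptotene library, 16.9, 9.76, 12.97 and 16.9 in leptotene libraries 1 to 4 and 7.84, 10.6, 6.60 and 12 in pachytene libraries 1 to 4. Pachytene and spermatogonia libraries covered the same range, at means of 9.26 ± 2.89 and 9.89 ± 3.20 FPKM. Its differences were 0.51 ± 0.36 into leptotene (interval -0.30 to 1.32) and -0.59 ± 0.36 from leptotene to pachytene (interval -1.40 to 0.22), with limma adjusted p of 0.463 and 0.210, and the later of them was -0.84 without leptotene libraries 2 and 3 (adjusted p = 0.0614). In pachytene total RNA the kinase was thus 27.6 ± 1.73 FPKM, its activator 9.26 ± 2.89 and its partner 1.10 ± 0.696, values per transcript length.

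Chek1, the kinase that ATR phosphorylates (chr9:36708482-36727065 on the minus strand), went the other way from Atr. Chek1 was 2.78, 4.47 and 5.75 FPKM in spermatogonia libraries 1 to 3, 2.33 in the preleptotene library, 5.76, 1.11, 2.55 and 2.02 in leptotene libraries 1 to 4 and 0.615, 0.811, 0.930 and 0.626 in pachytene libraries 1 to 4. All 4 pachytene libraries were below every leptotene and spermatogonia library, and library 2 was again the leptotene library nearest to pachytene. From leptotene to pachytene Chek1 fell by 0.98 ± 0.30 (interval -1.66 to -0.31, limma adjusted p = 0.0285) and from spermatogonia by 1.67 ± 0.32 (3.18-fold, adjusted p = 0.00302). With the animal as a block in limma the later step was -1.05 (adjusted p = 0.202) and the whole span -1.76 (adjusted p = 0.0688), and neither passed. In each assay 1 animal gave both leptotene and pachytene, so the blocked later step compares leptotene library 3 with pachytene libraries 2 and 4. No animal gave both spermatogonia and pachytene, so the blocked span joins that step to the step into leptotene of other animals. The later step also did not pass without leptotene library 1, at -0.70 (limma adjusted p = 0.260), with spike-in scaling, at -0.49 (adjusted p = 0.352), or with FPKM rescaled without the spike-ins, at -0.76 (adjusted p = 0.0652). It was -1.38 without leptotene libraries 2 and 3 (limma adjusted p = 0.0331).

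Atm, the break-responsive kinase, had the largest fall of the 10 genes. Atm was 7.73, 7.26 and 12.99 FPKM in spermatogonia libraries 1 to 3, 16.5 in the preleptotene library, 20.7, 3.07, 16.3 and 20.9 in leptotene libraries 1 to 4 and 0.253, 0.528, 2.002 and 0.545 in pachytene libraries 1 to 4. Leptotene libraries 1, 3 and 4 and the preleptotene library were above all spermatogonia libraries, leptotene library 2 was below them, and the 4 pachytene libraries were below all others. The means over animals were 10.2 ± 3.88 FPKM in spermatogonia (SD, n = 2), 16.4 ± 4.49 in leptotene (n = 3) and 0.832 ± 0.418 in pachytene (n = 2). From leptotene to pachytene Atm fell by 3.15 ± 0.43 (interval -4.12 to -2.17, limma adjusted p = 0.00315), 8.85-fold on the scale of FPKM + 1, and from spermatogonia by 2.66 ± 0.47 (6.31-fold, adjusted p = 0.00206). Without leptotene libraries 2 and 3 the later step was -3.66 (limma adjusted p = 3.54e-04), and with the animal as a block -3.49 (adjusted p = 0.00468). Without leptotene library 1 it was -2.74 and did not pass (limma adjusted p = 0.175), and in that fit only 9 of all genes did. Leptotene libraries 1 and 2 came from the same animal. That fit therefore kept library 2, at 3.07 FPKM, as the only leptotene value of that animal. Pachytene library 3 held 2.002 FPKM of Atm, above the 0.253 to 0.545 of the other pachytene libraries, and it also held the largest sum of the 7 spermatogonia markers, 16.3 FPKM against 1.71 to 2.96, whose part in it was not tested.

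Chek2, the kinase below ATM, was at low levels and fell too. Chek2 was 2.98, 2.22 and 1.62 FPKM in spermatogonia libraries 1 to 3, 1.38 in the preleptotene library, 1.27, 0.413, 1.66 and 1.18 in leptotene libraries 1 to 4 and 0.181, 0.289, 0.220 and 0.371 in pachytene libraries 1 to 4. All pachytene libraries were below all others, and leptotene library 2, at 0.413, was next to them. Chek2 fell by 0.79 ± 0.27 from leptotene (interval -1.41 to -0.17, limma adjusted p = 0.0471) and by 1.28 ± 0.30 from spermatogonia (adjusted p = 0.00693). Once the animal entered as a block, the differences were -0.9999 (limma adjusted p = 0.173) and -1.63 (adjusted p = 0.0603), neither of which passed. The fall from leptotene was close to the threshold. It was -0.82 without leptotene libraries 2 and 3 (limma adjusted p = 0.0169). It was lost on leaving out any of spermatogonia library 2 (limma adjusted p = 0.0552), leptotene library 1 (0.244), 3 (0.0895) or 4 (0.1001), or pachytene library 1 (0.0576) or 2 (0.0548). It was also lost with no filter on low values (limma adjusted p = 0.0909), with spike-in scaling (0.159) and with FPKM rescaled without the spike-ins (0.0791).

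The ratio of Atr to Atm in total RNA, taken library by library, turned over between the stages. It was 0.535 to 0.873 in spermatogonia, 1.01 in the preleptotene library, 0.488 to 9.90 in leptotene with a median of 0.745, and 13.3 to 104 in pachytene. The leptotene value of 9.90 was library 2. In nascent RNA the ratio was 0.636 to 0.697 in spermatogonia and 0.848 in the preleptotene library. It was 0.585 to 2.56 in leptotene, with a median of 1.09 and library 2 the highest, and 2.76 to 23.0 in pachytene. The ratio is a description of these libraries, since both genes enter the tests above.

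Mdc1, the reader of phosphorylated H2AX, was the most abundant of the 10 genes in total RNA, with a mean of 85.2 FPKM over the 12 libraries, followed by Atr at 17.9 and Topbp1 at 11.6. Mdc1 was 21.9, 20.6 and 25.1 FPKM in spermatogonia libraries 1 to 3, 94.5 in the preleptotene library, 102, 103, 36.7 and 108 in leptotene libraries 1 to 4 and 124, 140.3, 102 and 145 in pachytene libraries 1 to 4. Every leptotene and pachytene library was above every spermatogonia library, and leptotene library 3, at 36.7, was the nearest to spermatogonia. Pachytene and leptotene overlapped, with pachytene library 3 below leptotene libraries 1, 2 and 4. From spermatogonia to pachytene Mdc1 rose by 2.41 ± 0.53 (5.30-fold, limma adjusted p = 0.00540). The difference into leptotene was 1.64 ± 0.49 (interval 0.53 to 2.75, limma adjusted p = 0.0742) and did not pass. It passed without leptotene library 3, at 2.14 (limma adjusted p = 0.00862), without libraries 2 and 3 (adjusted p = 0.00500) and with the animal as a block, at 2.14 (adjusted p = 0.0213). The animal of leptotene library 3 gave no spermatogonia, so under the block that library has no part in this step. Both values of 2.14 thus rest on the same animals. From leptotene to pachytene the difference was 0.76 ± 0.49 (interval -0.34 to 1.87, limma adjusted p = 0.237).

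Mdc1 made up 33.5% to 34.9% of the summed FPKM of the 10 genes in spermatogonia, 41.4% to 64.5% in leptotene and 69.6% to 74.6% in pachytene. The sum itself was 58.8 to 72.1 FPKM in spermatogonia, 88.5 to 175 in leptotene and 146 to 208 in pachytene, so it was higher in every pachytene library than in any spermatogonia library although 3 of the genes fell. All Mdc1 and Atr leptotene libraries lay above the spermatogonia libraries, 2 of 10 genes, where 5.22% of all genes did so. For pachytene against leptotene the libraries did not overlap for Atm, Chek1 and Chek2, all lower, where 21.2% of all genes were lower in every library. For pachytene against spermatogonia the libraries did not overlap for 2 higher and 3 lower genes, beside 30.5% and 37.9% of all genes.

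Rnf8 and Trp53bp1, which act after MDC1, showed no difference that passed. Rnf8 (chr17:29614790-29644991 on the plus strand), the ubiquitin ligase, was uneven within stages. Rnf8 was 2.24, 2.08 and 1.86 FPKM in spermatogonia libraries 1 to 3, 2.39 in the preleptotene library, 1.81, 2.26, 0.278 and 0.387 in leptotene libraries 1 to 4 and 0.808, 0.722, 0.202 and 4.84 in pachytene libraries 1 to 4. Leptotene libraries 1 and 2 were at the spermatogonia level, libraries 3 and 4 were far lower, and pachytene library 4 was the highest of all. Rnf8 overlaps Gm28043 on the same strand by 30116 bases, and Gm28043 was listed at 1.23 to 9.77 FPKM, so reads of these genes may have been split between them. It also shares 30202 bases of that strand with Gm28052, which was listed at 0. Trp53bp1 (chr2:121193281-121271407 on the minus strand), whose protein shields broken ends, had overlapping spermatogonia, leptotene and pachytene libraries. Trp53bp1 was 7.07, 6.11 and 3.26 FPKM in spermatogonia libraries 1 to 3, 7.37 in the preleptotene library, 4.82, 4.89, 7.15 and 4.54 in leptotene libraries 1 to 4 and 4.64, 6.21, 3.81 and 5.96 in pachytene libraries 1 to 4. The preleptotene library was above all others, and the means over animals were 4.93 ± 2.35, 5.52 ± 1.43 and 5.16 ± 1.31 FPKM in spermatogonia, leptotene and pachytene. Its difference from spermatogonia to pachytene was 0.10 ± 0.40, with an interval of -0.82 to 1.02, a width that does not show the levels to be alike.

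Trip13 (chr13:73911347-73937784 on the minus strand), the ATPase that remodels HORMAD proteins, was uneven within spermatogonia and leptotene. Trip13 was 5.91, 1.14 and 1.04 FPKM in spermatogonia libraries 1 to 3, 1.49 in the preleptotene library, 1.83, 4.01, 1.65 and 6.98 in leptotene libraries 1 to 4 and 2.73, 3.21, 2.95 and 3.56 in pachytene libraries 1 to 4. Spermatogonia libraries 1 and 2, from the same animal, were at 5.91 and 1.14. The pachytene libraries lay within 2.73 to 3.56. No difference passed, and that from spermatogonia to pachytene was 0.55 ± 0.53 (interval -0.66 to 1.76, limma adjusted p = 0.414).

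In nascent RNA Atm again fell into pachytene, Topbp1 and Trip13 fell in 1 comparison each, and no rise passed. Limma on 16375 genes called 0 of the 10 between spermatogonia and leptotene, with 1 at an unadjusted p under 0.05, where 10.6% of all genes were called and 24.3% had such a p. It called 3 of 10 between leptotene and pachytene, all downward (Atm, Chek1 and Topbp1), where 31.5% of all genes were called, 15.8% downward. It called 3 of 10 between spermatogonia and pachytene, all downward (Atm, Chek2 and Trip13), where 43.5% of all genes were called, 27.9% downward. The median change of the 10 was 0.22, -0.50 and -0.87 in these comparisons, beside -0.08, -0.27 and -0.39 over all genes. These FPKM are shares of each nascent library, of which spike-ins held 5.01% to 76.5%, and the correction to 5S RNA is given after them. With spike-in scaling limma called 0 of the 10 in any nascent comparison, and Atm was -4.43 ± 2.11 from leptotene to pachytene (adjusted p = 0.763). With no filter on low values Chek1 from leptotene (limma adjusted p = 0.125), and Chek2 (0.113) and Trip13 (0.0647) from spermatogonia, did not pass. Without leptotene libraries 2 and 3 limma called 33.8%, 48.6% and 51.4% of all genes in the 3 comparisons.

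**Figure D2:**
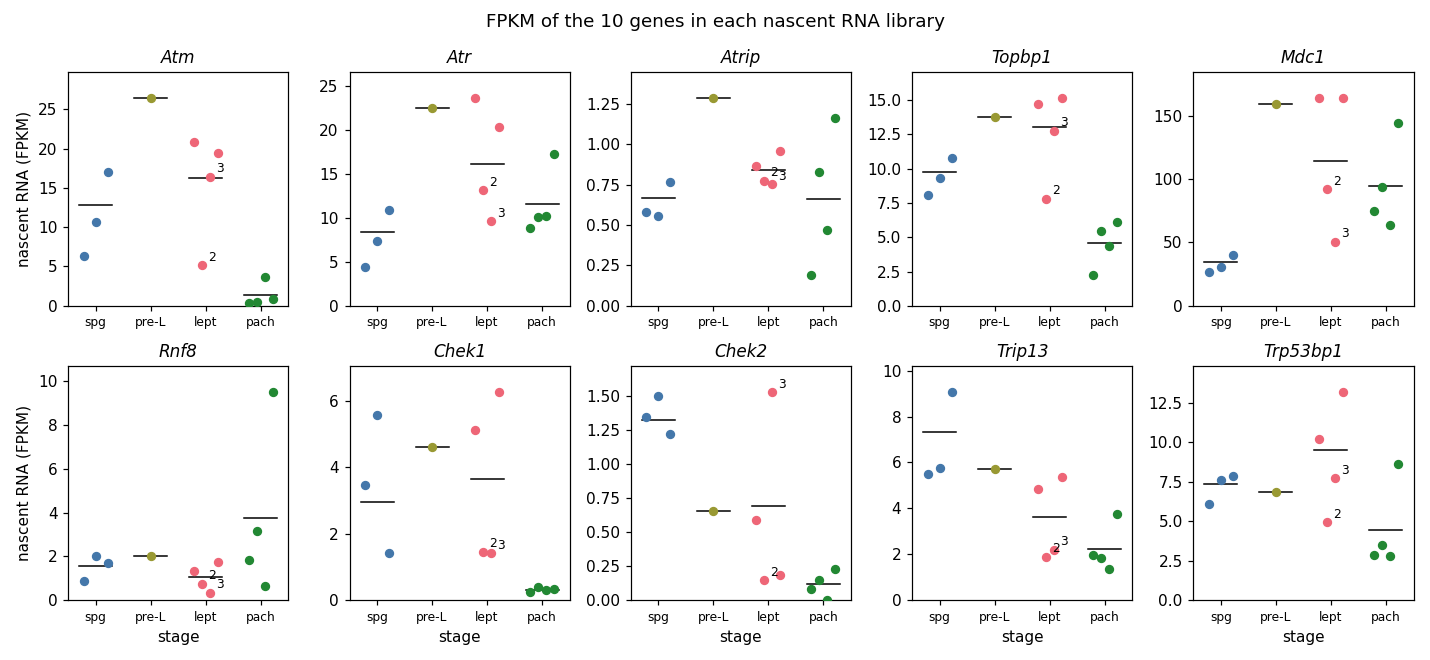
Nascent RNA level in FPKM (vertical, from 0, a scale for each gene) for the 10 genes by stage (horizontal, as for total RNA), with 1 point per library, bars at the mean over animals and leptotene libraries 2 and 3 numbered. Atm, Topbp1 and Chek1 sit lower in all 4 pachytene libraries than in any leptotene library, and Mdc1 sits higher in all leptotene and pachytene libraries than in spermatogonia.

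Nascent Atr was 4.45, 7.31 and 10.9 FPKM in spermatogonia libraries 1 to 3, 22.4 in the preleptotene library, 23.6, 13.1, 9.58 and 20.3 in leptotene libraries 1 to 4 and 8.84, 10.1, 10.2 and 17.2 in pachytene libraries 1 to 4. The pachytene libraries lay within or next to the leptotene range, and leptotene library 3 lay inside the spermatogonia range. The differences were 0.85 ± 0.47 into leptotene, -0.40 ± 0.47 from leptotene to pachytene and 0.45 ± 0.51 over the whole span (interval -0.68 to 1.59), with limma adjusted p of 0.296, 0.538 and 0.516. Without leptotene libraries 2 and 3 the step into leptotene passed, at 1.36 (limma adjusted p = 0.0408). Nascent Topbp1 was 8.08, 9.33 and 10.8 FPKM in spermatogonia libraries 1 to 3, 13.8 in the preleptotene library, 14.7, 7.80, 12.8 and 15.2 in leptotene libraries 1 to 4 and 2.25, 5.44, 4.38 and 6.14 in pachytene libraries 1 to 4. In these FPKM, all pachytene libraries were below all leptotene and spermatogonia libraries. Spike-ins held 13.11% to 76.5% of the nascent pachytene libraries, and their part in this was not tested. In the 5S-corrected signal, pachytene overlapped both leptotene and spermatogonia for Topbp1. Topbp1 fell by 1.37 ± 0.41 from leptotene to pachytene (limma adjusted p = 0.0269), and the difference was -1.58 without leptotene libraries 2 and 3 (adjusted p = 0.0104). In the fit with the animal as a block the difference was -1.02 and did not pass (limma adjusted p = 0.526), nor did it without leptotene library 1 (0.132) or 4 (0.0804) or pachytene library 1 (0.0705) or 2 (0.0562). Nascent Atrip stayed between 0.189 and 1.29 FPKM in all 12 libraries, and its differences did not pass.

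Nascent Chek1 was 3.46, 5.56 and 1.43 FPKM in spermatogonia libraries 1 to 3, 4.61 in the preleptotene library, 5.11, 1.47, 1.41 and 6.25 in leptotene libraries 1 to 4 and 0.253, 0.413, 0.302 and 0.326 in pachytene libraries 1 to 4. The pachytene libraries were at most 0.413 FPKM and below every other library, while leptotene libraries 2 and 3 and spermatogonia library 3 lay at 1.41 to 1.47. Chek1 fell by 1.63 ± 0.51 from leptotene (limma adjusted p = 0.0331), and the difference from spermatogonia was -1.45 ± 0.56 (adjusted p = 0.0555). On leaving out leptotene libraries 2 and 3, both passed, at -2.33 (limma adjusted p = 0.00263) and -1.45 (adjusted p = 0.0173). With the animal as a block the fall from leptotene was -0.82 and did not pass (limma adjusted p = 0.544), nor did it without spermatogonia library 3 (0.0532), leptotene library 1 (0.142) or leptotene library 4 (0.0723). The difference from spermatogonia passed without any of spermatogonia library 1 (0.0486), leptotene library 3 (0.0236) or 4 (0.0207), or pachytene library 2 (0.0473), and with 0.1 in place of 1 added before the log (0.0223). Without leptotene library 3 or 4 that difference itself stayed at -1.45. Only its standard error, which takes in the spread within leptotene, went from 0.56 to 0.46.

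Nascent Atm was 6.38, 10.6 and 17.1 FPKM in spermatogonia libraries 1 to 3, 26.4 in the preleptotene library, 20.8, 5.14, 16.4 and 19.4 in leptotene libraries 1 to 4 and 0.401, 0.441, 3.69 and 0.844 in pachytene libraries 1 to 4. All pachytene libraries were below all others, and library 3 was the highest of them, as it was in total RNA. Atm fell by 2.97 ± 0.46 from leptotene (interval -3.99 to -1.95, 7.83-fold, limma adjusted p = 0.00139) and by 2.66 ± 0.51 from spermatogonia (adjusted p = 0.00197). On leaving out leptotene libraries 2 and 3, the fall from leptotene was -3.37 (limma adjusted p = 8.73e-04), and with the animal as a block -3.41 (adjusted p = 0.00335). Nascent Chek2 was 1.35, 1.499 and 1.22 FPKM in spermatogonia libraries 1 to 3, 0.659 in the preleptotene library, 0.592, 0.149, 1.53 and 0.183 in leptotene libraries 1 to 4 and 0.0856, 0.152, a listed 0 and 0.227 in pachytene libraries 1 to 4. Spermatogonia libraries were all above pachytene libraries, and leptotene spanned both. Chek2 fell by 1.06 ± 0.36 from spermatogonia to pachytene (limma adjusted p = 0.0355), and did not pass without spermatogonia library 3 (0.110) or leptotene library 1 (0.0682), or with upper quartile scaling (0.0548). Between spermatogonia and leptotene its difference was -0.54 ± 0.33 and did not pass, and it passed without leptotene library 3, at -0.88 (limma adjusted p = 0.0181).

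Nascent Mdc1 was 26.6, 30.4 and 40.4 FPKM in spermatogonia libraries 1 to 3, 159 in the preleptotene library, 164, 91.8, 50.3 and 164 in leptotene libraries 1 to 4 and 75.01, 93.6, 63.8 and 145 in pachytene libraries 1 to 4. All leptotene and pachytene libraries were above all spermatogonia libraries, and pachytene lay inside the leptotene range. The difference into leptotene was 1.54 ± 0.56 (limma adjusted p = 0.121), and it passed without leptotene library 3 (adjusted p = 0.0225) and without libraries 2 and 3, at 2.24 (adjusted p = 0.00953). From spermatogonia to pachytene it was 1.38 ± 0.62 (limma adjusted p = 0.0958), and it passed without leptotene libraries 2 and 3 (adjusted p = 0.0398), with upper quartile scaling (adjusted p = 0.0351) and with FPKM rescaled without the spike-ins (adjusted p = 0.0292). From leptotene to pachytene it was -0.16 ± 0.56.

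Nascent Rnf8 was 0.883, 2.03 and 1.70 FPKM in spermatogonia libraries 1 to 3, 2.01 in the preleptotene library, 1.32, 0.751, 0.349 and 1.77 in leptotene libraries 1 to 4 and 1.82, 3.15, 0.637 and 9.48 in pachytene libraries 1 to 4. The stages overlapped, pachytene library 4 was the highest of all, as in total RNA, and the difference from leptotene was 0.94 ± 0.49 (limma adjusted p = 0.167). Once the animal entered as a block, it was 2.29 and passed (limma adjusted p = 0.0185). That value rests on 1 animal, with leptotene library 3 at 0.349 FPKM against pachytene libraries 2 and 4 at 3.15 and 9.48. Nascent Trp53bp1 was 6.11, 7.64 and 7.90 FPKM in spermatogonia libraries 1 to 3, 6.87 in the preleptotene library, 10.2, 4.94, 7.73 and 13.2 in leptotene libraries 1 to 4 and 2.89, 3.53, 2.81 and 8.63 in pachytene libraries 1 to 4. Pachytene library 4 alone among its stage lay inside the leptotene range. The difference from leptotene was -0.99 ± 0.43 (limma adjusted p = 0.102), and it passed without pachytene library 4, at -1.27 (adjusted p = 0.0305), without leptotene library 2, at -1.15 (adjusted p = 0.0422), and with upper quartile scaling (adjusted p = 0.0398). The neighbour Tubgcp4 overlaps the Trp53bp1 gene by 5490 bases on the other strand, and the use of strand in counting is not given in the sources used here.

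Nascent Trip13 was 5.51, 5.78 and 9.05 FPKM in spermatogonia libraries 1 to 3, 5.70 in the preleptotene library, 4.86, 1.89, 2.19 and 5.37 in leptotene libraries 1 to 4 and 1.99, 1.85, 1.36 and 3.77 in pachytene libraries 1 to 4. Every leptotene and pachytene library was below every spermatogonia library. Trip13 fell by 1.38 ± 0.47 from spermatogonia to pachytene (interval -2.42 to -0.35, limma adjusted p = 0.0339). In the fit with the animal as a block the difference was -0.47 and did not pass (limma adjusted p = 0.793), nor did it without spermatogonia library 3 (0.223), leptotene library 1 (0.0775) or pachytene library 2 (0.0947). The difference into leptotene was -0.90 ± 0.43 (limma adjusted p = 0.226).

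By library, nascent leptotene was above spermatogonia throughout for Mdc1 (5.4% of all genes) and below throughout for Trip13 (19.7%). Nascent pachytene was below leptotene throughout for 3 of the 10 genes (18.7% of all genes). Against spermatogonia it was above throughout for Mdc1 (18.1%) and below throughout for Atm, Topbp1, Chek1, Chek2 and Trip13 (35.6%).

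**Figure D3:**
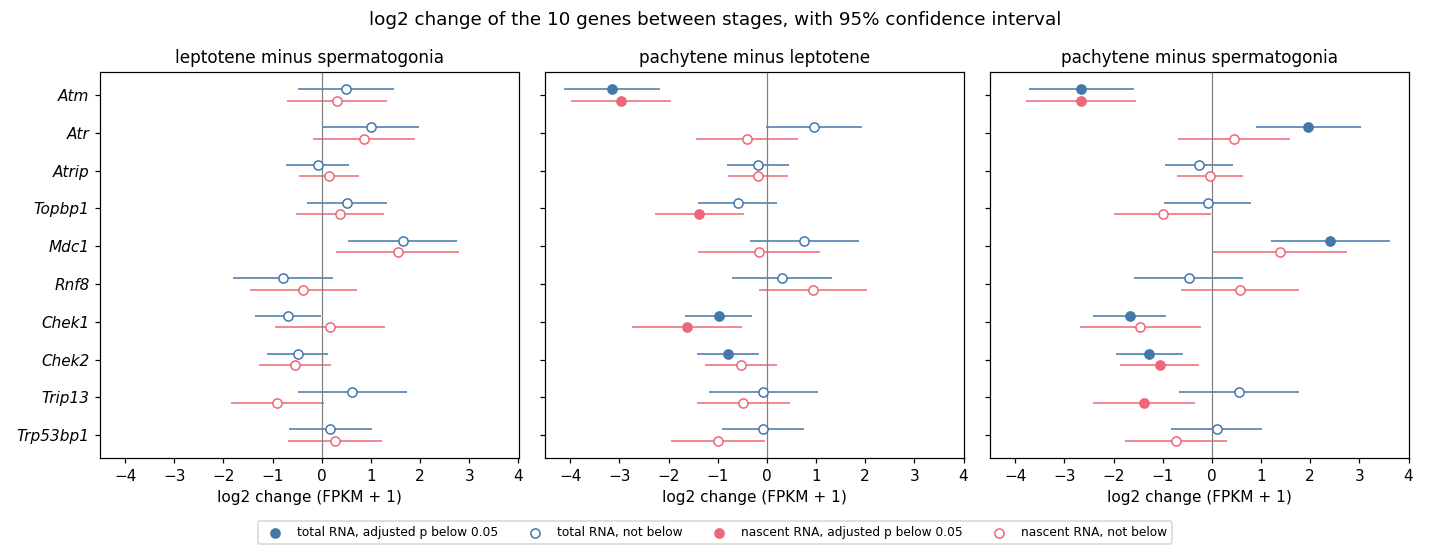
Change in log2(FPKM + 1) for each of the 10 genes in the 3 comparisons of stages, with 95% confidence intervals, for total and nascent RNA, filled where the adjusted p was below 0.05. The interval of Atm lies below 0 in both assays in the 2 comparisons with pachytene, and those of Atr and Mdc1 lie above 0 in total RNA for pachytene over spermatogonia.

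An interaction term between stage and kind of RNA, fitted over 15914 genes, compared the change in total RNA with that in nascent RNA. The fit took the libraries of both assays as independent, which was not tested. Limma called 0 of the 10 genes in each of the 3 comparisons, with 1, 0 and 1 at an unadjusted p under 0.05, beside 2.83%, 6.76% and 9.38% of all genes, and it called 0%, 0.0251% and 0.0126% of all genes. Trip13 was the gene under 0.05, at 1.52 ± 0.67 into leptotene and 1.93 ± 0.73 from spermatogonia to pachytene (limma adjusted p = 0.437). For Atr the total change exceeded the nascent one by 1.36 ± 0.64 from leptotene to pachytene (interval -0.02 to 2.74, limma adjusted p = 0.728). As a description, the ratio of mean total to mean nascent FPKM of Atr was 0.759 in spermatogonia, 0.742 in the preleptotene libraries, 0.939 in leptotene and 2.38 in pachytene. That of Atm was 0.802, 0.626, 1.01 and 0.619 in the same order, and that of Trip13 was 0.311, 0.261, 1.06 and 1.39. The interaction test thus did not separate the assays for any of these genes. The nascent FPKM in these ratios are shares that include spike-ins. Spike-ins held 8.857% to 58.95% of the nascent spermatogonia libraries, 5.012% to 69.23% of leptotene and 13.11% to 76.5% of pachytene. In total RNA they held 2.489% to 8.185%. Their part in the ratios was not tested.

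The deposited 5S-corrected nascent signal, in which each library is multiplied by its own constant, kept Atm lower in pachytene. It held 9 libraries, without leptotene libraries 2 and 3 and pachytene library 3, and the constants ranged from 0.441 to 5.09. In corrected signal Atm was 24.9, 28.9 and 16.1 in spermatogonia libraries 1 to 3, 12.4 in preleptotene, 12.2 and 8.55 in leptotene libraries 1 and 4, and 0.705, 2.24 and 1.92 in pachytene libraries 1, 2 and 4. Mdc1 was 104, 82.6 and 38.1 in spermatogonia libraries 1 to 3, 74.5 in preleptotene, 96.4 and 72.2 in leptotene libraries 1 and 4, and 132, 476 and 329 in pachytene libraries 1, 2 and 4. Rnf8 was 3.45, 5.51 and 1.60 in spermatogonia libraries 1 to 3, 0.938 in preleptotene, 0.775 and 0.778 in leptotene libraries 1 and 4, and 3.20, 16.0 and 21.5 in pachytene libraries 1, 2 and 4. Atm stayed lower in every pachytene library than in any other, while Mdc1 and Rnf8 were higher in pachytene than in leptotene throughout. Limma on 18206 genes gave -2.24 for Atm from leptotene to pachytene (adjusted p = 0.0306), 2.29 for Rnf8 (adjusted p = 0.0130) and 0.24 for Topbp1 (adjusted p = 0.915), whose direction was the reverse of that in uncorrected FPKM. In that comparison 32.9% of all genes were called, 30.9% higher and 2.01% lower. From spermatogonia to pachytene Atm, at -3.19 (limma adjusted p = 0.00185), and Chek2, at -1.28 (adjusted p = 0.0373), were called lower, where 41.1% of all genes were called, 18.2% higher and 22.8% lower. From spermatogonia to leptotene Chek2 was called lower, at -1.46 (limma adjusted p = 0.0290), where 27.5% of all genes were called, 0.549% higher and 27% lower.

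In corrected signal Atr was 17.4, 19.9 and 10.2 in spermatogonia libraries 1 to 3, 10.5 in preleptotene, 13.9 and 8.96 in leptotene libraries 1 and 4, and 15.6, 51.5 and 39.2 in pachytene libraries 1, 2 and 4. Pachytene was above leptotene in all libraries, and it overlapped spermatogonia. Against spermatogonia Mdc1 was above in every pachytene library, as were 22.7% of all genes, and Atm and Chek2 were below, as were 27.6%. Across the 10 genes, leptotene was below spermatogonia in every library for 7 and above for 0, where 66.9% and 4.06% of all genes were. Pachytene was above leptotene in every library for 4, Atr, Mdc1, Rnf8 and Trip13 (54.3% of all genes), and below for 2, Atm and Chek1 (11.3%). Chek1 was -1.04 from leptotene to pachytene (limma adjusted p = 0.284).

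The preleptotene stage, in which the last DNA replication before meiosis takes place, had 1 library per assay, so its values have no replicate check. In total RNA Atm, Atr, Topbp1 and Mdc1 were at 16.5, 16.6, 17.9 and 94.5 FPKM, above all 3 spermatogonia libraries, and 7 of the 10 genes were above them, where 24.8% of all genes were. Chek1, at 2.33, and Chek2, at 1.38, were below them all, where 44.3% of all genes were. In nascent RNA 5 of the 10 genes were above all spermatogonia libraries and Chek2 was below, where 36.3% and 36% of all genes were. After 5S correction 7 of the 10 were below all of them and 3 overlapped, and the share of all genes was not taken there. Of the 5, Atm, Atrip and Topbp1 were then below, and Atr and Mdc1 overlapped. Spike-ins held 8.637% of the nascent preleptotene library and 8.857% to 58.95% of the spermatogonia libraries, and their part in this was not tested. Mdc1 stood at 94.5 FPKM in total RNA and 159 in nascent RNA before leptotene, close to leptotene libraries 1 and 4.

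Of 49 other genes of the pathway, 47 were tested in total RNA. From leptotene to pachytene 3 were called higher and 11 lower by limma, and from spermatogonia to pachytene 5 higher and 11 lower, beside the 22.4% and 17.9%, and 23.1% and 29.8%, of all genes. The split depended on the scaling. With spike-in scaling 12 were higher and 6 lower from leptotene, and 9 and 8 from spermatogonia, and with FPKM rescaled without the spike-ins 7 and 6, and 6 and 11. With no filter on low values it was 3 and 6 from leptotene. Of the 3 CHK1 mediators 2 fell: Clspn, which bridges ATR and CHK1, was at 5.54 ± 0.0639 FPKM in spermatogonia, 7.54 ± 1.12 in leptotene and 1.05 ± 0.0156 in pachytene, and changed by -1.995 ± 0.30 from leptotene (adjusted p = 0.00318), and Timeless, of the fork protection complex, changed by -0.96 ± 0.30 (adjusted p = 0.0311). Among 11 genes of ATR activation 0 rose and 3 fell: the RPA subunits Rpa2, at -1.19 ± 0.37, and Rpa3, at -1.45 ± 0.41, and the other ATR activator Etaa1, at -0.95 ± 0.33. Among 8 genes of ATM activation and kinase chaperones Telo2, which folds both kinases, changed by -1.72 ± 0.31 and Rad50, of the break-sensing MRN complex, by -1.01 ± 0.31, while Atmin, an ATM cofactor, changed by 1.39 ± 0.38. All of these passed. With spike-in scaling Etaa1 was -0.10 (limma adjusted p = 0.881), Rpa2 -0.30 (0.657), Rpa3 -0.91 (0.137), Rad50 -0.19 (0.764) and Timeless -0.30 (0.595), and these 5 did not pass. With FPKM rescaled without the spike-ins Etaa1, Rpa2, Rad50 and Timeless did not pass, nor did Cdkn1a, at adjusted p of 0.0588 to 0.1498. Etaa1, Rpa2, Rpa3, Cdc25b and Cdkn1a did not pass with no filter on low values (limma adjusted p of 0.0512 to 0.0968). The remaining genes of ATR activation, among them the 9-1-1 clamp and its loader, did not pass in either direction in this step.

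Of 9 genes of H2AX and ubiquitin signalling, Brca1, which loads ATR on unsynapsed axes, fell, with means of 10.4 ± 0.905, 17.0 ± 4.80 and 1.51 ± 0.0308 FPKM in spermatogonia, leptotene and pachytene and a change of -2.73 ± 0.37 from leptotene (limma adjusted p = 0.00315). H2afx, the substrate itself, was at 620.2 ± 316 FPKM in leptotene and 279 ± 109 in pachytene, a difference of -1.03 ± 0.46 that did not pass (limma adjusted p = 0.102). Of 7 axis and silencing partners, Scml2, a Polycomb protein of the sex chromosomes, changed by -3.11 ± 0.44 (limma adjusted p = 0.00316) and Mad2l1bp, the adaptor of TRIP13, by 1.66 ± 0.33 (adjusted p = 0.00593). Of 9 checkpoint effectors Mdm2, the p53 ubiquitin ligase, rose by 1.85 ± 0.35 (limma adjusted p = 0.00475), and Cdc25b, a phosphatase that starts mitosis, and Cdkn1a, the p53-induced inhibitor of cyclin-dependent kinases, changed by -1.80 ± 0.47 and -0.96 ± 0.32. With the animal as a block 1 rose and 7 fell from leptotene to pachytene, and 1 and 7 from spermatogonia. Cdkn1a, Mdm2, Rad50, Rpa2, Timeless, Atmin and Etaa1 no longer passed in the first of these. On leaving out leptotene libraries 2 and 3, the counts were 6 and 20 from leptotene, and 5 and 14 from spermatogonia. Leaving out leptotene library 1 gave 0 and 0 from leptotene and 0 and 6 from spermatogonia, leptotene library 4 gave 2 and 6 from leptotene, and spermatogonia library 3 gave 1 and 7 from spermatogonia.

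The 5 pathway genes that rose from spermatogonia to pachytene were Mdm2, at 1.62 ± 0.38, Atmin, at 1.25 ± 0.42, Mad2l1bp, at 1.07 ± 0.36, Rbbp8, the cofactor that starts resection of broken ends, at 1.06 ± 0.36, and Atf7ip2, a SETDB1 partner in sex chromosome silencing, at 1.11 ± 0.39 (limma adjusted p of 0.00707, 0.0320, 0.0347, 0.0354 and 0.0412). None of these 5 passed with the animal as a block, where the adjusted p was 0.102 to 0.450, Atf7ip2 did not pass with no filter on low values (limma adjusted p = 0.0557), and Mdm2 did not pass without leptotene libraries 2 and 3 (0.168). The largest falls over the same span were those of Scml2, at -2.68 ± 0.48, Cdc25b, at -2.36 ± 0.51, and Brca1, at -2.23 ± 0.41, all with a limma adjusted p of at most 0.00498. With the animal as a block Brca1 was -2.13 and did not pass (limma adjusted p = 0.0721).

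**Figure D4:**
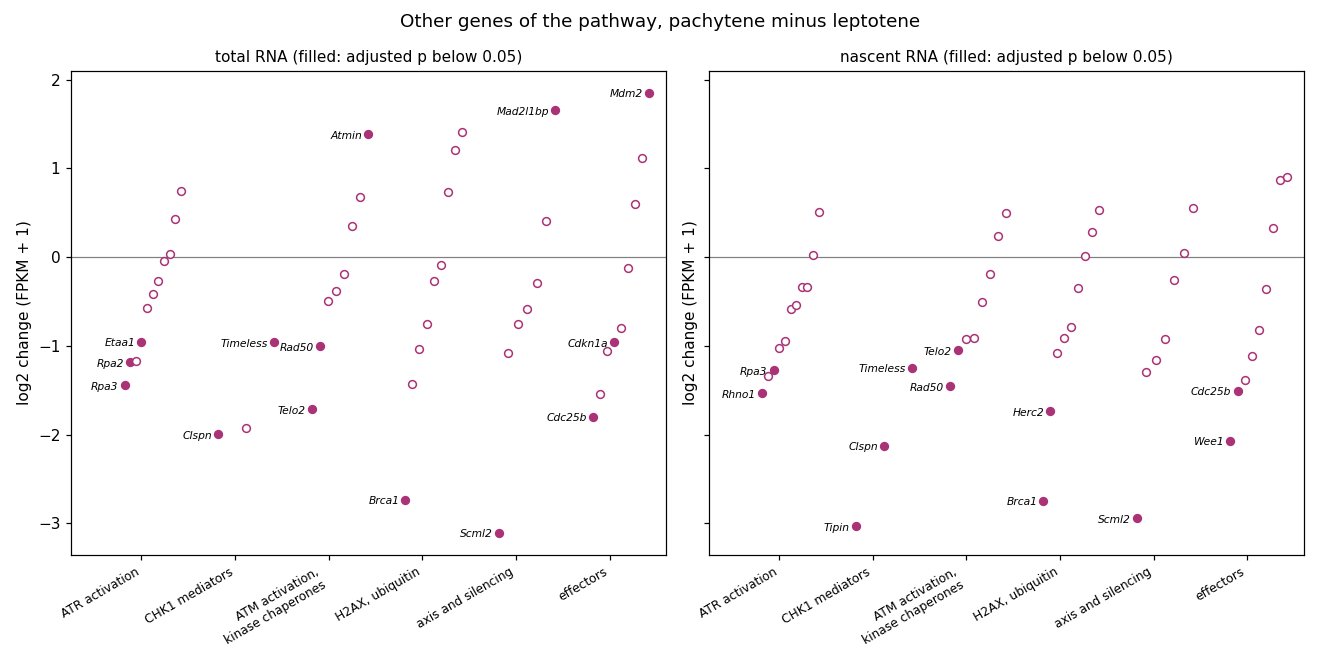
Change in log2(FPKM + 1) from leptotene to pachytene (vertical) for the 47 other pathway genes tested, by gene list (horizontal), in total RNA (left) and nascent RNA (right), with 1 point per gene, filled and named where the adjusted p was below 0.05. Brca1, Scml2 and Clspn lie far below 0 in both panels, the 3 filled points above 0 are in the total RNA panel, and the nascent panel has 0 filled points above 0.

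Into leptotene 0 of the 47 genes were called in total RNA, with 2 at an unadjusted limma p under 0.05, beside the 21.8% of all genes, and without leptotene libraries 2 and 3 the test called 7 higher and 3 lower. In nascent RNA the counts higher and lower were 0 and 0 into leptotene (4 at an unadjusted limma p under 0.05, beside 24.3% of all genes), 0 and 12 from leptotene to pachytene, and 0 and 16 from spermatogonia to pachytene. Of all genes 15.7% and 15.8% were called higher and lower in the first of these later comparisons, and 15.6% and 27.9% in the other. The nascent falls from leptotene took in all 3 CHK1 mediators, with Tipin, the partner of Timeless, at -3.03 ± 0.51 (limma adjusted p = 0.00196). They also took in Scml2 at -2.94 ± 0.44, Brca1 at -2.74 ± 0.42 and Wee1, the kinase that holds back mitotic entry, at -2.07 ± 0.49. Once the animal entered as a block, the nascent counts were 0 and 6 from leptotene, and 0 and 5 from spermatogonia. After 5S correction they were 11 higher and 1 lower from leptotene, and 0 and 9 from spermatogonia, beside 30.9% and 2.01%, and 18.2% and 22.8%, of all genes. That table also lacks leptotene libraries 2 and 3 and pachytene library 3. In it Scml2 (limma adjusted p = 0.0522), Brca1 (0.1865) and Wee1 (0.479) did not pass from leptotene to pachytene, and Wee1 did not pass with the animal as a block (0.330). The nascent counts from leptotene were 0 and 3 without leptotene library 1 and 0 and 19 without leptotene library 2, those from spermatogonia 0 and 4 without spermatogonia library 3 and 0 and 7 without leptotene library 1, and all were 0 with spike-in scaling.

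Genes that overlap the 10 can share reads with them. Atr overlaps the antisense transcripts Gm16794 by 9737 bases and 1700065D16Rik by 726 bases. The median of Gm16794 in total RNA was 1.55 FPKM in spermatogonia and 6.63 in pachytene, so it was higher where Atr was higher, and its part in the Atr values was not tested. Atm starts 306 bases from Npat, on the other strand, whose medians were 31.9 FPKM in leptotene and 7.11 in pachytene. Trip13 starts 26 bases from Brd9 and Chek2 201 bases from Hscb, both on the other strand. Brd9 had medians of 2.42 FPKM in spermatogonia and 8.46 in pachytene. Trex1, which lies inside Atrip on the same strand, was listed at 0 in all libraries.

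The genes whose total RNA followed a member most closely over the 12 libraries were found by Pearson's r of log2(FPKM + 1) among genes with a mean of at least 5 FPKM. The libraries share stages and animals, so r is a description. For Atm they were Rbmx2, Tfcp2l1 and Zfyve9, each at 0.997. For Atr they were Kif27 (0.982), Uchl3 (0.978) and Fam20b (0.976), for Mdc1 Ccdc155 (0.995), Ccdc73 (0.993) and Tada2b (0.985), and for Topbp1 Xpr1 (0.954), Hibadh (0.928) and Fam204a (0.927). The nearest genes to Trp53bp1 were further from it, Map3k7 at 0.883, Paip2 at 0.805 and Mrps12 at 0.790. Among the 10 genes themselves r was 0.934 between Atr and Mdc1, 0.815 between Atm and Chek1 and -0.91 between Atr and Chek2.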

How the data were processed

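The authors deposited FPKM per gene for 12 total and 12 nascent libraries. The submitters' processing notes name STAR 2.5.2a, StringTie and mm10. The annotation, the StringTie version and the strand setting are not given in the sources used here. Per the labels' protocols, ERCC spike-ins were added after extraction and only total libraries were depleted of ribosomal RNA. Another table the authors deposited holds a 5S-corrected nascent signal for 9 libraries, which equals the nascent FPKM times 1 constant per library.

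A gene needed at least 1 FPKM in at least 2 libraries, and all 10 passed in both assays. The 92 spike-in rows were not tested. On log2(FPKM + 1), averaged per animal and stage, limma 3.58.1 (lmFit, contrasts.fit, eBayes with trend) ran in R 4.3.3 with Benjamini-Hochberg adjustment over all genes and a threshold of 0.05. The fits were tested on simulated data. SDs are over animals. Python 3.11.15, pandas 2.3.3, numpy 2.4.6 and matplotlib 3.10.9 did the rest.

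The summed FPKM ranged from 273300 to 442400 (total) and from 341600 to 807900 (nascent). Only 23.1% to 37.3% of the lowest values were within 0.05 of a whole read, so depth is unknown. No library pair (0) held identical values.

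By the labels' animal numbers, spermatogonia and leptotene shared 2 animals per assay, and leptotene and pachytene 1. Spermatogonia and pachytene shared no animal. Deviations of samples of the same animal correlated at 0.0131, 0.0795 and 0.0836 (total) and at -0.207, -0.227 and 0.0394 (nascent). Alternatives were the animal block, scalings, pseudocount, filter, libraries as replicates and libraries left out.

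The members, lists and tests were chosen with earlier results of these data known. The 10 genes are always given. Of the other pathway genes, up to 3 called per list and comparison with the largest change are named, or the most abundant where none was called, and the 3 genes most like each member with a mean of at least 5 FPKM.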

Additional observations from a re-analysis of the deposited data

Results flagged for a closer look

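Among 40 groups of 4 libraries, 10 genes in leptotene and pachytene of both assays, 7 held a library that stood apart from the other 3 by more than a Dixon test allows at 95%. That level flags about 1 in 20 groups of independent, normally distributed values. These groups share libraries and hold FPKM without a log, so their count cannot be read against that rate. In total RNA Atm was 2.002 FPKM in pachytene library 3, against 0.2528 to 0.5451 in the others. Mdc1 was 36.68 FPKM in leptotene library 3, against 102.2 to 107.7. Rnf8 was 4.843 FPKM in pachytene library 4, against 0.2015 to 0.8081. Trp53bp1 was 7.154 FPKM in leptotene library 3, against 4.541 to 4.892.

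In nascent RNA Atm was 3.688 FPKM in pachytene library 3, against 0.4009 to 0.844 in the others, so the same stage and library number stood apart in both assays. The labels give the assays different animal numbers. Whether libraries of the same number share cells was not tested, so this is not a separate replicate. Atr was 17.22 FPKM in pachytene library 4, against 8.84 to 10.2. Trp53bp1 was 8.629 FPKM in the same library, against 2.808 to 3.532. Spike-ins held 13.11% of the summed FPKM of that library, against 64.92% to 76.5% in nascent pachytene libraries 1 to 3. Their part in these values was not tested.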

How the results depend on the processing

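Depth is unknown, stages have 2 or 3 animals, and leptotene libraries 2 and 3 stood apart from libraries 1 and 4, so small changes could not be seen. Of 300 values of the 10 genes per assay under settings other than leaving out 1 library, 280 of total and 266 of nascent RNA kept direction and call, 9 and 15 lost the call, 11 and 18 gained it, and 0 and 1 turned direction: nascent Topbp1 from leptotene to pachytene, 0.24 in the 5S-corrected table. Direction changes of differences called in neither fit (28 and 27) are not counted as reversals. Where a setting moved a count by over 1.5 times, the cause was not tested.

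Genes called in the 3 comparisons, in the order leptotene over spermatogonia, pachytene over leptotene and pachytene over spermatogonia, were 1895, 7742 and 10151 in total RNA, 1734, 5161 and 7124 in nascent RNA, and 0, 4 and 2 for the interaction. With the animal as a replicate block, total RNA gave 4464 genes and 1 of the 10 from leptotene to pachytene. It gave 6139 and 3 from spermatogonia to pachytene, and 1 of the 10 into leptotene. In nascent RNA the block gave 3326 genes into leptotene and 3128 from leptotene to pachytene. The block pairs leptotene with spermatogonia in 2 animals and with pachytene in 1. No animal gave both spermatogonia and pachytene, so that comparison joins the other 2. The block changed no call of the 10 genes beyond those given with the results. Without leptotene libraries 2 and 3, total RNA into leptotene gave 5123 genes and 2 of the 10, nascent RNA gave 5453 and 3, then 7836 genes from leptotene to pachytene and 5 of the 10 from spermatogonia, and the interaction gave 17, 300 and 206. Without library 2 alone the interaction gave 229 and 110 in its 2 later comparisons. The 5S-corrected table gave 5013 nascent genes and 1 of the 10 into leptotene, and 29, 229 and 23 genes for the interaction. The same 9 libraries of total RNA gave 4954 genes and 2 of the 10 into leptotene. With libraries as replicates the counts were 3420 and 2 (total) and 2984 and 1 (nascent) into leptotene, 6 of the 10 in nascent RNA from spermatogonia to pachytene, and 4, 13 and 111 for the interaction. Without a filter nascent RNA from spermatogonia to pachytene gave 1 of the 10, and the interaction 121, 38 and 306. With FPKM rescaled without the spike-ins, an alternative chosen after the data were seen, total RNA from leptotene to pachytene gave 1 of the 10 and the interaction 1 in its last comparison. Spike-in scaling gave 0 nascent genes in all 3 comparisons, thus 0 of the 10 in the later 2, and 0 and 1 genes for the interaction.

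Scaling also moved the median of all genes. From leptotene to pachytene in total RNA it was -0.07 (4297 higher, 3445 lower), 0.62 with spike-in scaling (7850, 2103) and 0.19 without the spike-ins (5593, 2663). In nascent RNA it was -0.27 (2572, 2589) and 0.87 after 5S correction (5624, 366). From spermatogonia to pachytene it was -0.14 in total RNA (4436, 5715) and 0.37 with spike-in scaling (6514, 4616). In nascent RNA it was -0.39 (2552, 4572) and -0.14 after 5S correction (3318, 4156). Into leptotene it was -0.08 (129, 1605) and -1.08 (100, 4913).

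Leaving out 1 library at a time gave 1050 to 2978 genes into leptotene in total RNA with 0 to 1 of the 10, 9 to 10224 with 0 to 4 from leptotene to pachytene, and 5944 to 10948 with 5 from spermatogonia. In nascent RNA the ranges were 1275 to 4167 with 0 to 2, 1324 to 6513 with 1 to 4, and 4623 to 7740 with 1 to 4. For the interaction they were 0, 1 to 172 and 0 to 37, with 0 of the 10. In total RNA the counts moved most without leptotene library 1 (1193, 9 and 5944 genes), 3 (2978 into leptotene) and 4 (1050). In nascent RNA they moved most without spermatogonia library 3 (4623, 1 of the 10 from spermatogonia to pachytene), leptotene library 1 (1324, 1 of the 10 from leptotene to pachytene), 3 (4167, 2 of the 10) and 4 (1 of the 10). In each assay leptotene libraries 1 and 2 were of the same animal. Leaving out library 1 therefore kept library 2 alone for that animal in leptotene.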
